A study of Homo sapiens with 12 samples.

Results

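Aminoacyl-tRNA synthetases join each amino acid to its tRNA and so supply the substrates of translation. Cells keep separate enzymes for the cytosol and for the mitochondrion, which are encoded by different nuclear genes for most amino acids. GARS1 and KARS1 serve both compartments from a single gene, EPRS1 joins glutamate and proline activities in a single protein, and FARSA and FARSB are the alpha and beta subunits of the cytosolic phenylalanine enzyme. Many cytosolic synthetase genes are known targets of ATF4, the transcription factor that is made when the kinases EIF2AK1 to EIF2AK4 phosphorylate eIF2 under amino acid shortage, heme shortage or other stress. Mitochondrial synthetases, which charge the tRNAs of the mitochondrial genome, are not typical members of that program.

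The genes were taken by symbol, which gave 38 synthetases among the 28278 genes of the count table. They were 21 cytosolic enzymes and 17 mitochondrial enzymes, whose symbols end in 2. Of the cytosolic enzymes, 12 are known as ATF4-driven (AARS1, CARS1, EPRS1, GARS1, IARS1, LARS1, MARS1, NARS1, SARS1, TARS1, WARS1 and YARS1) and are called the ATF4 list here. Another 9 are cytosolic enzymes outside that list, such as FARSA, FARSB and TARS3, a little-expressed relative of TARS1. All 38 passed the filter on low counts, and the smallest count of any member in any library was 140, for TARS3.

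The libraries came from K562, a human erythroleukaemia line, either unedited (WT) or with HRG1 knocked out (HRG1-KO, here KO). HRG1 is the heme transporter encoded by SLC48A1. Each genotype was left untreated or was given sodium butyrate, a histone deacetylase inhibitor that drives erythroid differentiation, with a first dose of 0.75 mM at 24 h from plating and a further dose 48 h on. Collection followed 6 h later, and the labels place the samples at day 8 of differentiation. There were 4 groups of 3 libraries (untreated WT, butyrate-treated WT, untreated KO and butyrate-treated KO). The labels do not say how many KO clones were used, how the gene was edited or whether replicates were separate cultures, so p-values measure the spread between these libraries, which may be technical.

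Totals ranged from 19963594 to 30348538 counts, of which the 38 synthetases took 0.570% to 1.07%. SLC48A1 was at 65.4 to 83.8 CPM (the count relative to library size, scaled between libraries) in the 6 WT libraries and at 2.94 to 10.1 CPM in the 6 KO libraries, so the genotype labels held in all 12. All 10 markers chosen for K562 were above 3 counts in every library, and their summed level was lower in KO (3533 to 6377 CPM) than in WT (8044 to 56556 CPM). Of 11 markers of other cell types, MS4A1 and KRT5 were at 0 throughout, and the list summed to 57.2 to 71.7 CPM in untreated WT and 59.5 to 84.3 CPM in untreated KO. It summed to 103 to 147 CPM in treated WT and 112 to 189 CPM in treated KO, where COL1A1 rose (3.05 to 80.8 CPM in WT and 3.08 to 96.9 CPM in KO, group means) and EPCAM was at 46.9 and 30.2 CPM in WT and 63.0 and 28.6 CPM in KO. The part of either marker list in the results was not tested. Replicate 1 of treated WT lay within the range of untreated WT in the summed ATF4 list, and replicate 2 of both untreated groups was high on it. The medians of the ATF4 list are therefore given with and without these libraries.

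The sequence that ATF4 and its partners bind, the C/EBP-ATF response element, was searched as the letters TGATGNAAN on both strands of RefSeq promoter windows (GRCh38.p14), from 250 bases before to 50 bases after each start site. An entry was found for 30 members, some of which had more than 1 start site, which gave 39 windows. The letters were present for 7 of the 10 ATF4-list members with an entry, 0 of 6 other cytosolic members and 1 of 14 mitochondrial members, against 4.45% of the 27305 genes in that collection. The classes had unequal numbers of windows. Counted by window, the letters were present in 7 of 15, 0 of 6 and 1 of 18, against 3.61% of all windows. The ATF4 list was drawn from general knowledge of ATF4 targets, so its shares are not independent of how the list was made. The 8 matches are shown because 7 of them belong to the ATF4 list, which the comparisons with butyrate are set out by. Each line gives 30 bases on the strand of the gene, 5′ to 3′, with the match in capitals. Matches on the opposite strand therefore read as the reverse complement.
AARS1: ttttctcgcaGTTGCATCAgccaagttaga
CARS1: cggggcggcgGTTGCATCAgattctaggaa
GARS1: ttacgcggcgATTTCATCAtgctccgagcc
IARS1: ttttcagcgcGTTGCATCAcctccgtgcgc
MARS1: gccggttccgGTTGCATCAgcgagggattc
NARS1: ctacgctctcTGATGCAACgccggaatcgc
TARS1: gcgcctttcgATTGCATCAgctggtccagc
YARS2: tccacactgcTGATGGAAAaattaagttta

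These stretches lie at chr16:70289675-70289704 (AARS1), chr11:3057407-3057436 (CARS1), chr7:30594834-30594863 (GARS1), chr9:92293692-92293721 (IARS1), chr12:57488053-57488082 (MARS1), chr18:57621803-57621832 (NARS1), chr5:33440956-33440985 (TARS1) and chr12:32756075-32756104 (YARS2). The genes of AARS1, CARS1, IARS1, NARS1 and YARS2 are on the minus strand and the others on the plus strand. Positions were counted from the start site of the window that held the match, with the first transcribed base as 1. The match began at -188 in AARS1, -14 in IARS1, -5 in MARS1, -3 in CARS1, 15 in NARS1 and -197 in YARS2. In GARS1 and TARS1 it began at -34 and 2, counted from a start site inside the gene. The annotated spans of GARS1 and TARS1 begin further upstream, at chr7:30594735 and chr5:33440696, so both matches lie within the spans. Read on its own strand, the match was TGATGCAAC in 5 members (AARS1, CARS1, IARS1, MARS1 and NARS1). A second motif, the core GCGCATGC of the NRF1 site found at many genes for mitochondrial proteins, was present for MARS2 and YARS2, which are 2 of 14 mitochondrial members with an entry, against 3.68% of all genes. These letters describe the windows and do not show that a factor was bound.

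Levels between genes were compared per length, as CPM per kb of annotated exon (GENCODE 29), because a longer transcript yields more counts. In untreated WT the 12 ATF4-list enzymes had a median of 67.9 CPM per kb (30.2 to 127), the 9 other cytosolic enzymes 35.3 (2.63 to 303) and the 17 mitochondrial enzymes 9.25 (2.98 to 47.2). VARS1, the valine enzyme, was the highest member at 303 ± 64.2 CPM per kb (SD, n = 3), followed by AARS1 at 127 ± 34.0, GARS1 at 121 ± 31.0 and SARS1 at 114 ± 45.4. These neighbours in the order after VARS1 did not differ beyond their spread. IARS2 (47.2 ± 2.19) and VARS2 (35.6 ± 1.38) were the highest mitochondrial enzymes, and TARS3 (2.63 ± 0.538) and CARS2 (2.98 ± 0.680) were the lowest members.

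For the 14 amino acids with a cytosolic and a mitochondrial gene of matching name, the cytosolic level per kb exceeded the mitochondrial level in all 14, by 1.34 times for isoleucine to 15.2 times for tryptophan, with a median of 5.85 times. The exon lengths include rarely used exons, which makes CARS1, CARS2, HARS1 and other genes with many annotated transcripts look lower than they may be. Some members share annotated exon bases with other genes, and the use of strand in counting is not given in the sources used here. The shared part was 57.0% for SARS2 (with MRPS12), 22.0% for VARS2 (with GTF2H4), 15.8% for HARS2 and 13.3% for MARS1 (with DDIT3, itself an ATF4 target), so their counts may hold reads of these genes.

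**Figure D1:**
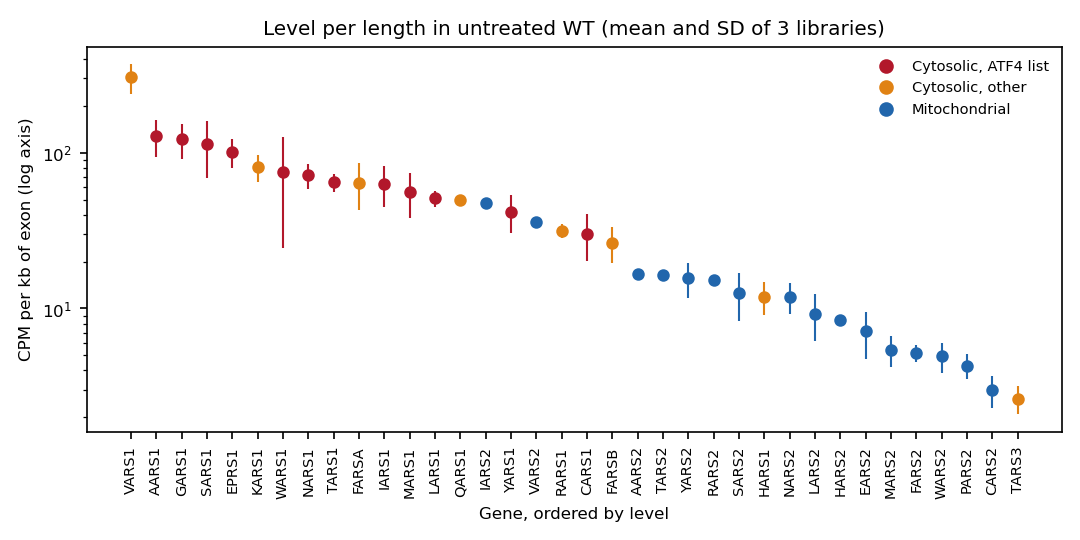
Level of the named synthetases in untreated WT as CPM per kb of annotated exon (y axis, log scale), ordered from high to low along the x axis; points are means and bars the SD of 3 libraries, coloured by class. VARS1 stands at 303 and the mitochondrial members lie at 47.2 or below.

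Across the 12 libraries the 4 widest ranges belonged to enzymes of the ATF4 list. CARS1, the cysteine enzyme, spanned 42.7 to 420 CPM, a 9.83-fold range, followed by WARS1 (tryptophan) with 6.74-fold, YARS1 (tyrosine) with 6.09-fold and GARS1 (glycine) with 5.64-fold. HARS1 (1.61-fold), RARS1 (1.62-fold) and QARS1 (1.67-fold), the histidine, arginine and glutamine enzymes, moved least. Neither group was uniform, since EPRS1 on the list had a 2.07-fold range and EARS2, a mitochondrial enzyme, a 4.05-fold range. WARS1 shows what made up its own range. In replicates 1, 2 and 3 of WT it was at 324, 843 and 260 CPM without butyrate and at 302, 132 and 125 CPM with it. In KO it was at 287, 819 and 490 CPM without butyrate and at 156, 203 and 370 CPM with it. Replicate 2 of each untreated group stood far above its companions, while both treated groups overlapped with the untreated ones.

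**Figure D2:**
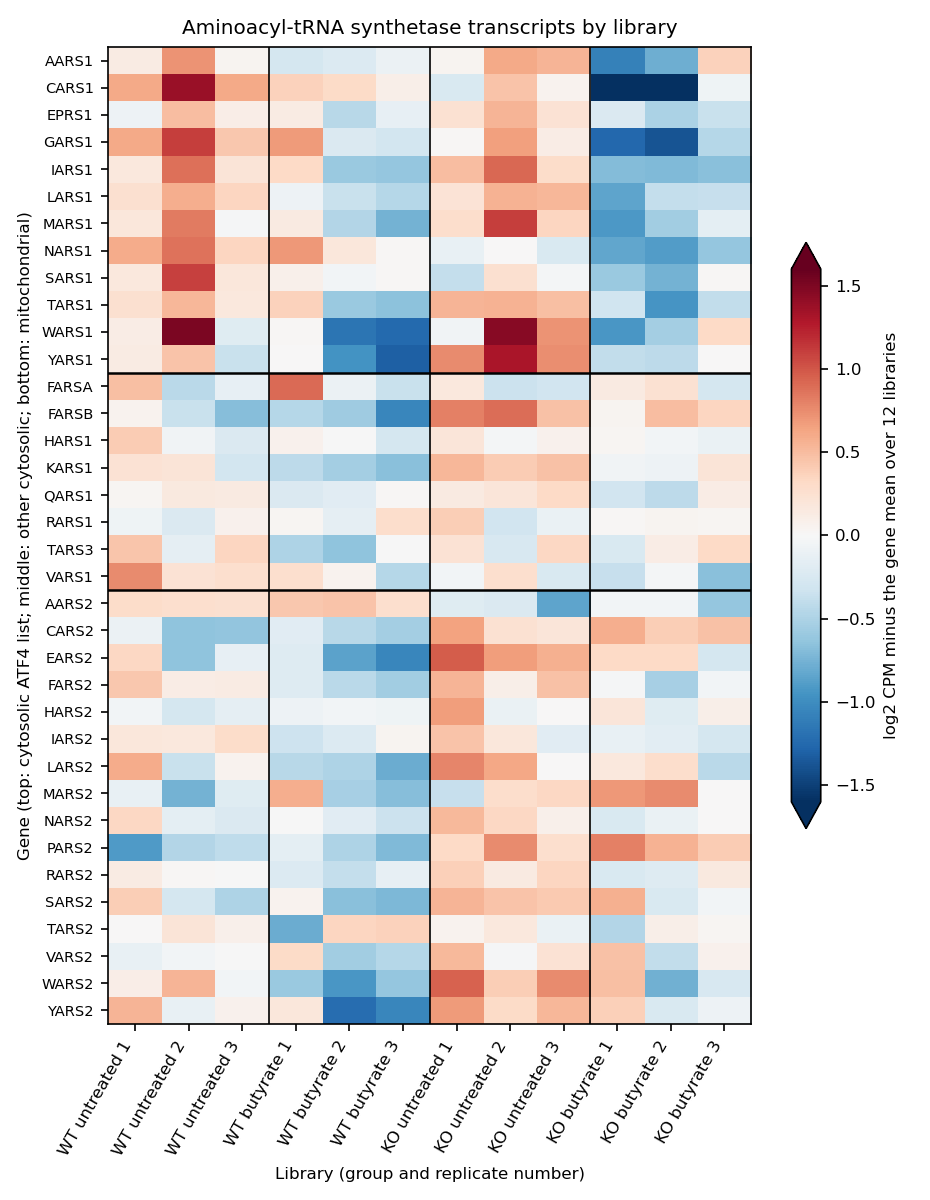
Each cell is the log2 CPM of a gene (rows, the named synthetases grouped by class) in a library (columns, by group and replicate) minus that gene's mean over the 12 libraries; red is higher and blue lower. By their median, the ATF4-list rows are reddest in replicate 2 of the untreated groups and bluest in replicates 1 and 2 of treated KO. Single rows differ, such as WARS1 and YARS1, which are bluest in replicates 2 and 3 of treated WT.

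Summed over the 12 ATF4-list genes, the level was 4401, 6815 and 4146 CPM in untreated WT and 4271, 2884 and 2849 CPM in treated WT. It was 4346, 6425 and 4857 CPM in untreated KO and 2278, 2299 and 3405 CPM in treated KO. Replicates 2 and 3 of treated WT lay below every untreated WT library, and replicate 1 lay between them. In KO every treated library lay below every untreated one. The 9 other cytosolic genes summed to 3006 ± 518 CPM (SD, n = 3) without and 2325 ± 446 CPM with butyrate in WT, and to 2760 ± 243 and 2190 ± 205 CPM in KO. Without VARS1 these sums were 1162 ± 137, 977 ± 136, 1390 ± 80.8 and 1112 ± 38.1 CPM. The 17 mitochondrial genes summed to 1070 ± 62.5 and 916 ± 113 CPM in WT and to 1285 ± 179 and 1072 ± 150 CPM in KO, so the KO means were above the WT means with and without butyrate. A lower level in such bulk samples can stem from less RNA per cell or from fewer cells that carry it, which cannot be told apart.

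**Figure D3:**
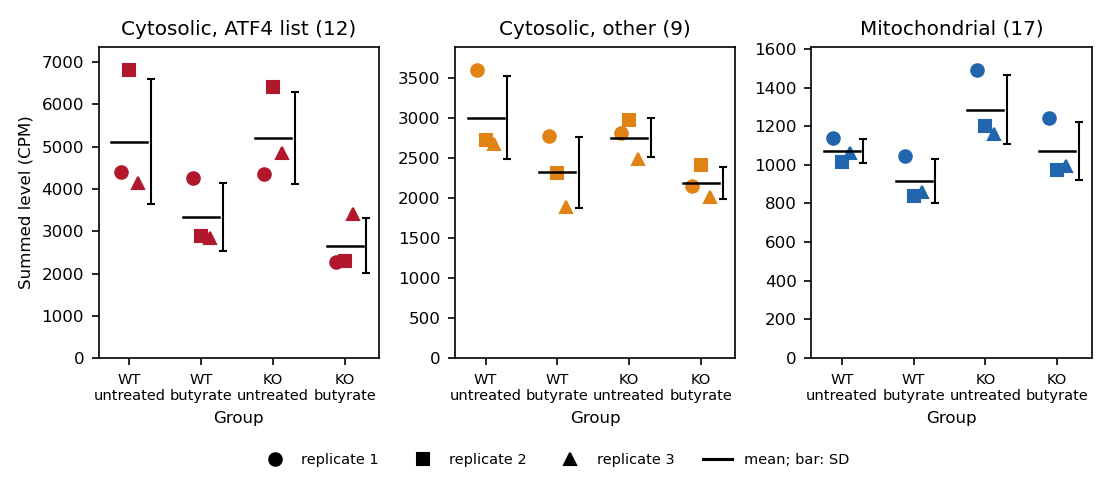
Summed CPM of each class (y axis, from 0) in every library by group (x axis); symbols are replicates 1 to 3, the line is the group mean and the bar its SD. For the ATF4 list, the treated KO libraries reach 3405 CPM at most and the untreated KO libraries 4346 CPM at least.

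With butyrate in WT, no synthetase passed the test over all genes, but 31 of 38 had a log2 change below 0. This count was 12 of 12 on the ATF4 list, 7 of 9 among other cytosolic enzymes and 12 of 17 among mitochondrial ones, against 47.5% of all 15805 genes tested. The median log2 change was -0.64 on the ATF4 list, -0.37 for the other cytosolic enzymes and -0.18 for the mitochondrial ones, against 0.02 for all genes. The test was edgeR's quasi-likelihood test with Benjamini-Hochberg adjustment over all tested genes and a threshold of 0.05. It called 0 members, where 2.35% of all genes were called and 0.55% were called lower. Of the members 9 had an unadjusted p under 0.05, all of them lower (7.07% of all genes). DESeq2 called 2 members, KARS1 and LARS1 (8.42% of all genes).

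The members with the smallest p were LARS1 (leucine), KARS1 (lysine), WARS2, FARS2 (mitochondrial tryptophan and phenylalanine) and WARS1. LARS1 was at 374, 469 and 396 CPM in untreated WT and at 297, 245 and 229 CPM in treated WT. Every treated library was below every untreated one. Its change was -0.69 on the log2 scale, with SE 0.20 and an edgeR adjusted p of 0.0945. With the replicate number as a block its adjusted p was 0.0399, and YARS2 also passed (0.0349), where the block called 3.14% of all genes as lower. KARS1 went from 367, 360 and 255 to 234, 215 and 196 CPM (-0.61, SE 0.19, edgeR adjusted p 0.110), again without overlap. WARS2 went from 17.4, 23.7 and 15.8 to 10.7, 8.49 and 10.5 CPM (-0.94, SE 0.32, edgeR adjusted p 0.145). FARS2 went from 28.9, 23.2 and 23.5 to 18.6, 15.8 and 14.6 CPM (-0.63, SE 0.23, edgeR adjusted p 0.167). Neither overlapped between groups. WARS1 had the lowest value, -1.35, with an SE of 0.53 and an edgeR adjusted p of 0.204. Its value was -0.65 when replicate 2 of untreated WT was left out. The highest value was 0.24 for FARSA (edgeR adjusted p 0.765), which rested on replicate 1 of treated WT and was -0.25 without it.

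The groups did not overlap for 11 members in WT, all lower with butyrate, where 10.4% of all genes were lower without overlap. They were AARS1, CARS1, KARS1, LARS1, QARS1 and SARS1 in the cytosol and FARS2, IARS2, LARS2, RARS2 and WARS2 in the mitochondrion. Replicate 1 of treated WT bears on this count. When same-numbered libraries were compared, the median change of the ATF4 list was -0.06 for number 1, -1.13 for number 2 and -0.73 for number 3. Without replicate 1 of treated WT the fitted median was -0.89, and 6 members and 1243 genes in all were called. Without replicate 2 of untreated WT it was -0.40, beside -0.41 for the other cytosolic enzymes and -0.25 for the mitochondrial ones, and 0 members were called. The order of the ATF4 list and the other cytosolic enzymes in WT thus rested on that library, and without all libraries numbered 2 their medians were -0.27 and -0.38.

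In KO cells butyrate lowered 2 synthetases past the threshold, LARS1 and IARS1 (isoleucine), both cytosolic members of the ATF4 list and of the multisynthetase complex. Of the 38 members 32 had a log2 change below 0, against 49.3% of all genes. On the ATF4 list this was 12 of 12, with a median log2 change of -1.07. The other cytosolic enzymes had 7 of 9 below 0 (median -0.35) and the mitochondrial ones 13 of 17 (median -0.36), and the median of all genes was 0.00. The same edgeR test called 0.595% of all genes as lower in KO and 3.4% in either direction. Library size alone, in place of the scaling between libraries, moved the median of all genes by 0.12 and gave medians of -0.95 for the ATF4 list, -0.22 for the other cytosolic enzymes and -0.23 for the mitochondrial ones.

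LARS1 was at 365, 460 and 455 CPM in untreated KO and at 175, 242 and 244 CPM in treated KO. The groups were far apart, with the treated mean at 51.6% of the untreated mean, or -0.96 in log2 units (edgeR SE 0.20 and adjusted p 0.0262). IARS1 was at 480, 642 and 416 CPM in untreated KO and at 211, 208 and 214 CPM in treated KO. The treated libraries lay within a few CPM of each other at 41.2% of the untreated mean, or -1.28 in log2 units (edgeR SE 0.29 and adjusted p 0.0333). An exact two-sided permutation test gave p 0.1 for each, the smallest that 3 libraries against 3 allow. Each kept an adjusted p under 0.05 in 1 of 6 fits that left out a library. The highest adjusted p was 0.122 for LARS1 and 0.155 for IARS1, in each case with replicate 2 of untreated KO left out. The log2 change then ranged from -1.06 to -0.82 for LARS1 and from -1.40 to -1.08 for IARS1.

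Next in order were TARS1 (threonine), GARS1 and YARS1, which did not pass. TARS1 was at 426, 430 and 409 CPM in untreated KO and 235, 152 and 224 CPM in treated KO (-1.05, SE 0.27, edgeR adjusted p 0.0564). GARS1 was at 304, 476 and 327 and then 126, 115 and 220 CPM (-1.26, SE 0.34, edgeR adjusted p 0.0604), and YARS1 at 535, 784 and 531 and then 241, 238 and 319 CPM (-1.21, SE 0.33, edgeR adjusted p 0.0667). None of these 3 overlapped between groups. With the replicate block 8 members passed, all lower, and 7 of them were on the ATF4 list (EPRS1, GARS1, IARS1, LARS1, MARS1, TARS1 and YARS1), where the block called 3.92% of all genes as lower. DESeq2 also called 8 (9.73% of all genes), and 16 members had an unadjusted p under 0.05 in edgeR, all lower (7.54% of all genes). The highest value was 0.41 for MARS2, the mitochondrial methionine enzyme (edgeR adjusted p 0.577). It was 0.21 when replicate 1 of untreated KO was left out, and 0.62 when replicate 3 of treated KO was.

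The groups did not overlap for 14 members in KO, all lower, where 11.8% of all genes were lower without overlap. Of these, 8 were on the ATF4 list: EPRS1, GARS1, IARS1, LARS1, MARS1, NARS1, TARS1 and YARS1. The remaining 6 included KARS1 and QARS1 in the cytosol and EARS2, FARS2 and NARS2 in the mitochondrion. Replicate 3 of treated KO was the highest of its group for 10 of the 12 ATF4-list genes. AARS1 was at 215 and 266 CPM in replicates 1 and 2 and at 589 CPM in replicate 3, inside the untreated range of 472 to 695 CPM. CARS1 was at 42.7, 51.6 and 153 CPM, against 135, 221 and 167 CPM in untreated KO. Same-numbered comparisons gave median changes of the ATF4 list of -1.10, -1.56 and -0.54 for numbers 1, 2 and 3, and the fitted median was -1.30 without replicate 3 of treated KO. It was -0.85 when replicate 2 of untreated KO was left out and -0.72 without all libraries numbered 2.

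**Figure D4:**
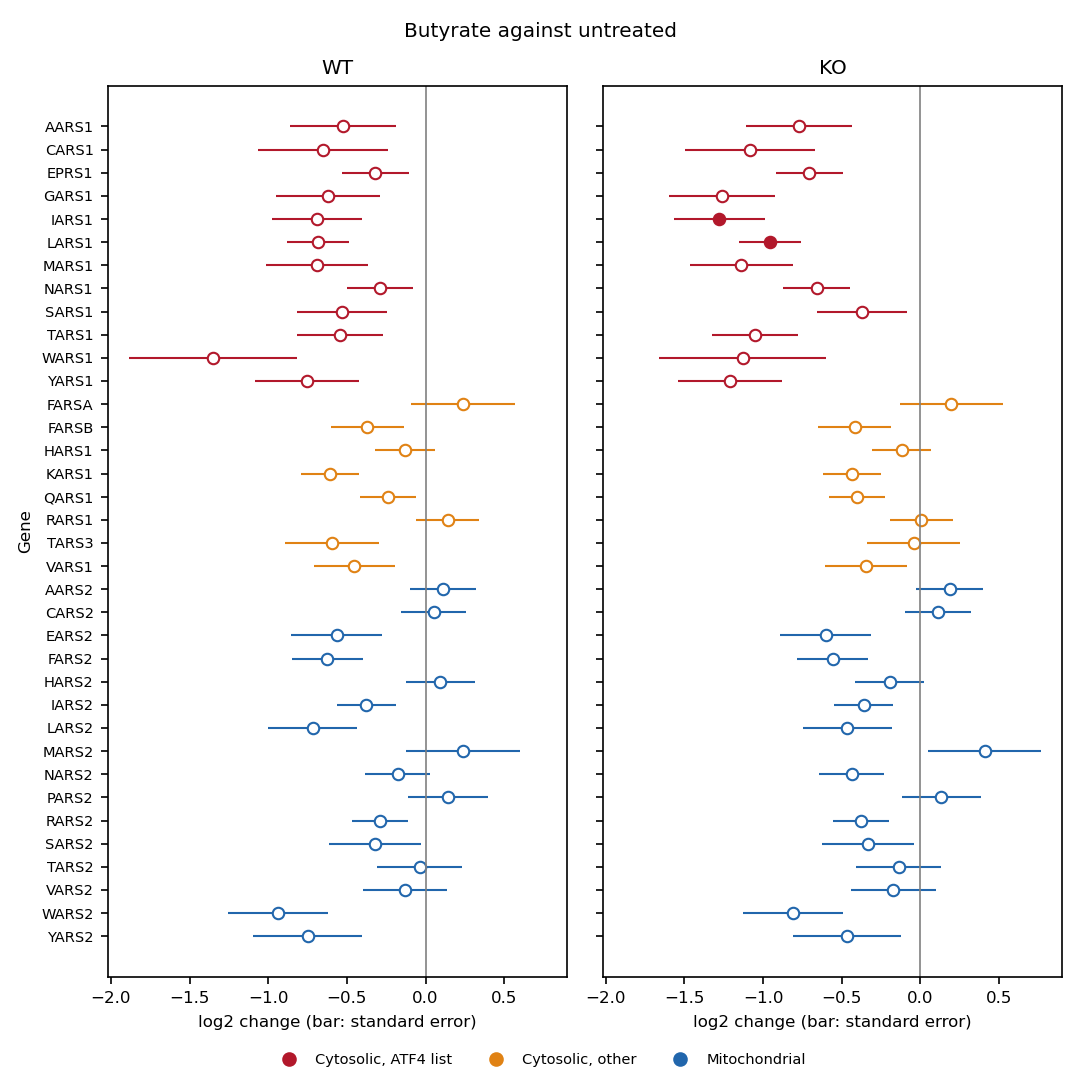
Log2 change with butyrate (x axis) for the named synthetases (y axis) in WT (left) and KO (right); points are edgeR estimates, bars their standard errors, filled points have an adjusted p under 0.05 and colours give the class. All 12 ATF4-list genes lie left of 0 in both panels, and LARS1 and IARS1 in KO are the only filled points.

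Of the 14 amino acids with matching names, the cytosolic gene had a lower log2 change than the mitochondrial gene for 12 in WT and for 12 in KO. The count in WT includes tyrosine, where YARS1 (-0.753) and YARS2 (-0.748) were nearly equal. Fewer pairs kept this order in the WT libraries numbered 1. By same-numbered libraries, the WT median of the 21 cytosolic enzymes was -0.12, -0.93 and -0.38 for numbers 1, 2 and 3. That of the 17 mitochondrial enzymes was -0.35, -0.14 and -0.29, so number 1 had the classes in reverse order. The pair for methionine lay furthest apart in KO, with -1.14 for MARS1 and 0.41 for MARS2, the latter moving with single libraries as given above. Cysteine followed with -1.08 for CARS1 and 0.11 for CARS2. Arginine went the other way in both genotypes, with 0.01 for RARS1 and -0.38 for RARS2 in KO and 0.14 and -0.29 in WT. Tryptophan had low values on both sides, with -1.13 for WARS1 and -0.81 for WARS2 in KO. These differences between genes were not tested.

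The histidine pair had some of the smallest changes, HARS1 with -0.13 in WT and -0.12 in KO and HARS2 with 0.09 and -0.19. These genes lie head to head on chromosome 5, and the 84 bases between their start sites, at chr5:140691371-140691454 on the plus strand (GRCh38.p14), are shown since neither the ATF4 letters nor the NRF1 letters occur in the windows of these genes.
HARS1 to HARS2: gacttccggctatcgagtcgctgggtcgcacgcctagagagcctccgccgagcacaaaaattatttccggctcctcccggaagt

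Set beside the promoter letters, the 8 members with the ATF4 letters had a median log2 change of -0.64 in WT and -1.07 in KO. The 22 members with a promoter entry and without the letters had -0.30 and -0.38, and the 8 members with no entry -0.49 and -0.47. The 8 with the letters had 8 of 8 values below 0 in each genotype. Since 7 of these 8 are on the ATF4 list, the comparison is largely that by list. It also shares the dependence of that list on libraries, whose WT median was -0.06, -1.13 and -0.73 for numbers 1, 2 and 3. In the WT libraries numbered 1 the 8 members with the letters lay on both sides of 0, from -0.42 for AARS1 to 0.15 for IARS1.

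Within the multisynthetase complex, which holds 8 of the cytosolic enzymes, 7 of 8 members had values below 0 in each genotype (47.5% of all genes in WT and 49.3% in KO). The median was -0.56 in WT and -0.76 in KO, and RARS1 was the exception. By same-numbered libraries the median was -0.13, -0.88 and -0.49 in WT and -0.53, -0.99 and -0.54 in KO, for numbers 1, 2 and 3. EPRS1, IARS1, LARS1 and MARS1 of the complex are also on the ATF4 list, so these counts are not separate from that list. Of the complex's scaffold proteins, EEF1E1 fell in KO, from 50.4, 33.0 and 42.7 to 23.3, 20.5 and 23.2 CPM (-0.91, SE 0.22, edgeR adjusted p 0.0412). AIMP1 had -0.66 (edgeR adjusted p 0.0796, with the block 0.0280) and AIMP2 -0.14 (0.905). In WT these 3 had -0.81, -0.45 and 0.12 and none passed in edgeR, while EEF1E1 passed with the replicate block (0.0264) and with DESeq2 (0.00906). XPOT, which exports tRNA from the nucleus and is itself an ATF4 target, had -0.65 in WT and -1.18 in KO (edgeR adjusted p 0.335 and 0.0791), and it passed in KO with the replicate block (0.0200) and with DESeq2 (0.0207). Of the 13 tested partner genes, to which these belong, edgeR called 1 lower with butyrate in KO (0.595% of all genes). The replicate block called 7 lower (3.92% of all genes).

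Other ATF4 targets were set beside the synthetases. Of 23 such genes, ATF4 included, 22 had values below 0 with butyrate in WT (47.5% of all genes) and 23 in KO (49.3%). In WT their median was -1.06, with 0 called by edgeR, the replicate block or DESeq2 and 9 at an unadjusted p under 0.05, all lower (7.07% of all genes). That median was -0.37 without replicate 2 of untreated WT, where the synthetases of the ATF4 list had -0.40, and -0.30 without all libraries numbered 2. In KO their median was -1.60, and it was -2.48 without replicate 3 of treated KO. Same-numbered comparisons in KO gave medians of -1.81, -2.73 and -0.74 for numbers 1, 2 and 3, so number 2 had the largest fall. With all libraries, edgeR called 2 lower in KO, ATF3 and SLC7A11 (0.595% of all genes). The block called 10 lower (3.92%) and DESeq2 11 (9.73%), and 19 were lower at an unadjusted p under 0.05 (7.54%). ATF4 mRNA itself was at 386, 571 and 475 CPM in untreated WT and 290, 506 and 374 CPM in treated WT. It was at 821, 793 and 872 CPM in untreated KO and 302, 307 and 742 CPM in treated KO, where replicate 3 was again the highest of the treated libraries. The log2 change of ATF4 was -0.29 in WT (edgeR adjusted p 0.707) and -0.88 in KO (0.165, and 0.0477 with the replicate block).

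Whether butyrate acted differently in the genotypes was tested by the interaction, the change in KO minus that in WT. In edgeR 0 of the 38 members passed and 0 had an unadjusted p under 0.05, where 0% of all genes passed and 4.16% had an unadjusted p under 0.05. The replicate block and DESeq2 also called 0 members, where they called 0.019% and 0.544% of all genes. The smallest unadjusted p belonged to IARS1 (-0.59, SE 0.40), GARS1 (-0.64, SE 0.47), TARS1 (-0.51, SE 0.38), TARS3 (0.55, SE 0.42) and EPRS1 (-0.39, SE 0.30), each with an edgeR adjusted p of 1.00. GARS1 was the lowest and TARS3 the highest of all members. Without replicate 1 of treated WT the first 3 of these values were -0.20, -0.24 and -0.08, and without replicate 2 of untreated WT they were -0.86, -0.87 and -0.62. On the ATF4 list 10 of 12 values were below 0, with a median of -0.41 that was -0.14 without replicate 1 of treated WT and -0.59 or -0.23 when replicate 2 of untreated WT or of untreated KO was dropped. For the other cytosolic enzymes it was 5 of 9 and -0.04, and for the mitochondrial ones 9 of 17 and -0.01.

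The knockout was compared with WT in untreated cells. FARSB, PARS2 (mitochondrial proline) and CARS2 (mitochondrial cysteine) were higher in KO, and NARS1 (asparagine) and AARS2 (mitochondrial alanine) were lower. These 5 were the members past the threshold in edgeR, 3 higher (11.7% of all genes were called higher) and 2 lower (10.9% of all genes were called lower), so the share of called members, 5 of 38, was below the 22.6% of all genes. The median log2 difference was 0.11 on the ATF4 list, 0.10 for the other cytosolic enzymes and 0.36 for the mitochondrial enzymes, of which 3 of 17 were below 0 (48.9% of all genes), against 0.02 for all genes. The ATF4-list median was 0.32 when replicate 2 of untreated WT was dropped and -0.09 when replicate 2 of untreated KO was. The groups did not overlap for 10 members that were higher in KO (22.2% of all genes) and for 3 that were lower (20.2%).

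FARSB was at 114, 85.1 and 68.1 CPM in untreated WT and at 191, 202 and 151 CPM in untreated KO. Every KO library was above every WT library, and the log2 difference was 1.03 (SE 0.23, edgeR adjusted p 0.00730). Its partner FARSA was at 214, 113 and 140 CPM in WT and at 172, 121 and 124 CPM in KO, overlapping throughout (-0.17, edgeR adjusted p 0.771). The difference between the alpha and beta subunits was not itself tested. PARS2 was low in abundance, at 8.02, 10.9 and 11.4 CPM in WT and 18.9, 25.5 and 18.3 CPM in KO (1.05, SE 0.25, edgeR adjusted p 0.0106). CARS2 went from 39.4, 27.0 and 27.3 to 65.9, 49.8 and 48.4 CPM (0.81, SE 0.21, edgeR adjusted p 0.0144), also without overlap.

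NARS1 was at 288, 349 and 241 CPM in untreated WT and at 176, 191 and 161 CPM in untreated KO, or 60.2% of the WT mean (-0.73, SE 0.21, edgeR adjusted p 0.0254). AARS2 was at 72.7, 70.9 and 70.7 CPM in WT and at 51.6, 50.2 and 32.9 CPM in KO (-0.67, SE 0.21, edgeR adjusted p 0.0381). Leaving out single libraries kept FARSB past the threshold in 6 of 6 fits, PARS2 in 5, CARS2 in 3, NARS1 in 2 and AARS2 in 1. The highest adjusted p over these fits was 0.0652 for PARS2 (without replicate 2 of untreated KO), 0.0696 for CARS2 (without replicate 3 of untreated WT), 0.110 for NARS1 (without replicate 2 of untreated WT) and 0.121 for AARS2 (without replicate 3 of untreated KO). The lowest value of all was -0.79 for CARS1 (edgeR adjusted p 0.196), which was -0.48 without replicate 2 of untreated WT. With the replicate block EARS2, SARS2 and YARS1 also passed, each higher in KO, where the block called 33% of all genes.

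With butyrate in both genotypes, NARS1, FARSB, CARS2 and PARS2 were called again, together with GARS1, lower in KO, and KARS1, higher in KO. These 6 of 38 stand against 19% of all genes, with 10.1% called higher and 8.89% called lower. The groups did not overlap for 5 members higher in KO (17.9% of all genes) and 5 lower (16%). NARS1 had the smallest p of all members, at 310, 216 and 192 CPM in treated WT and 107, 103 and 125 CPM in treated KO (-1.10, SE 0.21, edgeR adjusted p 0.00332), and it passed in 6 of 6 fits that left out a library. GARS1 was at 482, 255 and 246 CPM in treated WT and at 126, 115 and 220 CPM in treated KO (-1.09, SE 0.33, edgeR adjusted p 0.0379). It passed in 3 of 6 such fits, its value lying between -1.45 and -0.72, with an adjusted p as high as 0.126 when replicate 2 of treated KO was dropped. It was -0.72 without replicate 1 of treated WT, which also ended the call, as did leaving out replicate 1 of treated KO.

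KARS1 was at 234, 215 and 196 CPM in treated WT and at 300, 297 and 362 CPM in treated KO (0.57, SE 0.19, edgeR adjusted p 0.0480). It passed in 1 of 6 fits that left out a library, and its adjusted p reached 0.158 when replicate 3 of treated WT was dropped. FARSB (0.98, edgeR adjusted p 0.0115), CARS2 (0.87, 0.0117) and PARS2 (1.04, 0.0131) had values close to those in untreated cells, and passed in 5, 6 and 4 of 6 such fits. FARSB (0.0510) and PARS2 (0.0642) were highest in adjusted p without replicate 3 of treated WT. The lowest value was that of CARS1, -1.23 (edgeR adjusted p 0.0583), which ranged from -2.04 (without replicate 3 of treated KO) to -0.91 over these fits. Medians were -0.27 on the ATF4 list (-0.11 when replicate 1 of treated WT was dropped), -0.04 for the other cytosolic enzymes and 0.27 for the mitochondrial ones. With the replicate block 11 members passed (29.2% of all genes), AARS2, CARS1, EARS2, SARS2 and YARS2 being added.

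The position of the called genes was set beside these differences, because the median of some chromosomes lay far from 0. NARS1 lies at chr18:57600656-57621836, and the median log2 difference between KO and WT over 189 tested genes of chromosome 18 was -0.52 in untreated and -0.61 in treated cells. GARS1 lies at chr7:30594735-30634033, and the median over 730 genes of chromosome 7 was -0.78 and -0.86, the lowest of 23 chromosomes. CARS2 lies at chr13:110641410-110713522, and the median over 267 genes of chromosome 13 was 0.94 and 0.83, the highest of 23. The chromosomes of the other called members were closer to 0, with 0.10 and 0.09 for chromosome 2 (FARSB), 0.10 and 0.05 for chromosome 1 (PARS2) and 0.00 and 0.00 for chromosome 16 (KARS1). Chromosome 6, with 0.08 and 0.04, had the opposite sign to AARS2.

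Neighbours within 5 Mb gave a closer view. In untreated cells the median difference of the neighbours had the sign of the member for all 5 called members, with 0.60 for 67 neighbours of FARSB (chr2:222566899-222656092), 0.67 for 48 neighbours of PARS2 (chr1:54756898-54764523), 0.70 for 42 neighbours of CARS2, -0.63 for 77 neighbours of AARS2 (chr6:44298731-44313347) and -0.25 for 22 neighbours of NARS1. In treated cells it had the sign of the member for all 6, including -0.68 for 46 neighbours of GARS1 and 0.51 for 44 neighbours of KARS1 (chr16:75627724-75647665). Among members that were not called the sign was shared for 20 of 33 in untreated and 21 of 32 in treated cells. CARS1, at chr11:3000929-3057423, had neighbours with a median of -0.82 in untreated and -0.79 in treated cells. The part of such regional differences in the values of the synthetases was not tested.

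**Figure D5:**
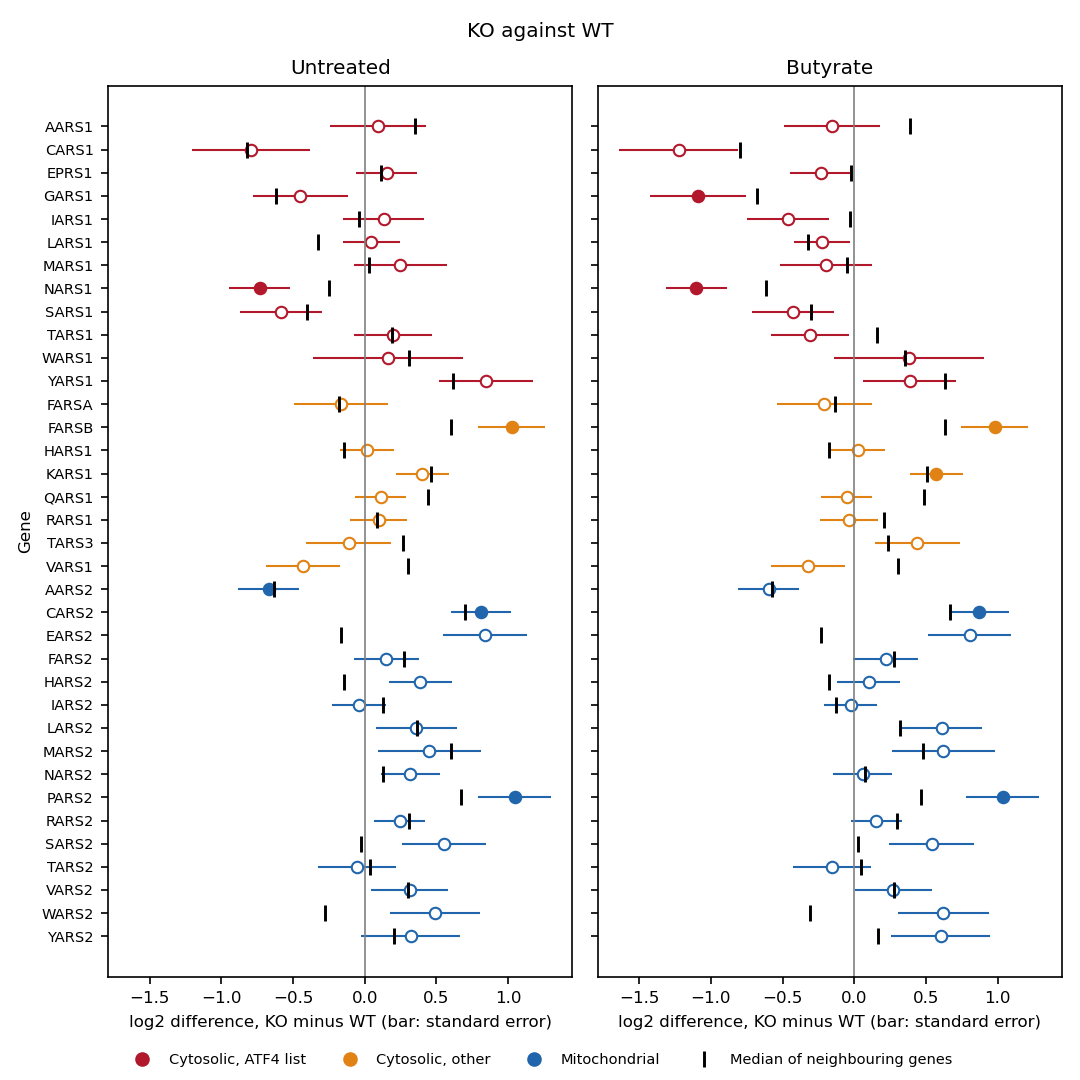
Log2 difference KO minus WT (x axis) for the named synthetases (y axis) in untreated (left) and butyrate-treated (right) cells, as edgeR estimates with standard errors; filled points have an adjusted p under 0.05, colours give the class and black ticks the median difference of tested genes within 5 Mb. The ticks of all filled points lie on the same side of 0 as the points.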

How the data were processed

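RNA sequencing was done on 12 libraries (4 groups of 3), grouped by the sample titles. The authors deposited whole-number counts per gene symbol. STAR 2.7.11b, FastQC 0.12.1 and the build hg38 are named in the submitters' processing notes, and the counting tool, annotation, strand and filters are not given in the sources used here. Of the columns, 0 were left unused.

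Counts were analysed in R 4.3.3 with edgeR 4.0.16. filterByExpr (minimum count 10) kept 15805 genes, libraries were scaled by TMM, and all 12 libraries entered 1 quasi-likelihood fit on group means, tested in 5 contrasts, with Benjamini-Hochberg adjustment over all genes. The procedure was tested on simulated data, drawn independently for each library. That simulation held no deviations shared by same-numbered libraries, so it does not show how the test behaves with them. Levels are TMM-scaled CPM, and centred values use log2 CPM with a prior count of 2. Alternatives were DESeq2 1.42.0, other scalings and filters, a replicate block, fits of 2 groups and fits leaving out libraries. Promoter sequences and positions are from RefSeq (GRCh38.p14), matched by symbol for 38 of 38 members (promoters for 30; AARS2, LARS1, TARS3, VARS1, VARS2 and YARS1 were among those unmatched) and for 15172 of 15805 tested genes.

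Libraries with the same number, taken from the titles, deviated together from their group means: over 15805 genes the lowest correlation of a same-numbered pair was 0.147 and the highest 0.595. Pairs with different numbers lay between -0.512 and 0.343. Between treated WT and treated KO the ranges overlapped, since same-numbered pairs began at 0.315 there. In the other comparisons every same-numbered pair lay above every differently numbered one. Deviations cancel within a group, so the ranges are not independent of each other. The block was read as a pairing on these values. Replicates differed by more than sampling noise (chi-square over degrees of freedom at least 31.6). Full statistics are given for members past the threshold (at most 12 per contrast), for the 5 smallest p-values where fewer than 5 passed, and for the highest and lowest value of each contrast. Genes of other lists were to be named by the 3 smallest p-values. ATF4, XPOT, AIMP1, AIMP2, EIF2AK1, EIF2AK2, EIF2AK4, DTD1, DTD2, SEPSECS, GTPBP1 and MTIF2 were chosen after their values were seen. Some members enter the counts, medians and sums but are not reported here individually. Members and lists were chosen with earlier results of these data known.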

Additional observations from a re-analysis of the deposited data

How the results depend on the processing

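Counts of called members depended on the libraries and on the model. With butyrate in WT the 0 calls (372 over all genes) became 2 with DESeq2 (1331), 2 with the replicate block (1361) and 8 without the libraries numbered 1 (1884), and ranged from 0 to 6 (1243) when single libraries were left out. With butyrate in KO the 2 calls (537 over all genes) became 8 with DESeq2 (1538), 8 with the replicate block (1852), 5 with no filter (630), and 10, 0 and 0 without the libraries numbered 1, 2 and 3 (2164, 0 and 69). They ranged from 0 to 4 without single libraries, with 0 without replicate 1 or 2 of untreated KO or replicate 2 of treated KO, and 4 without replicate 1 of treated KO. For KO against WT in untreated cells the 5 calls (3574 over all genes) became 8 with the replicate block (5217), 9 when only the groups compared were fitted (4093), and 8, 0 and 0 without the libraries numbered 1, 2 and 3 (4314, 1018 and 1526), and ranged from 2 (without replicate 2 of untreated WT) to 4. In treated cells the 6 calls (3009 over all genes) became 11 with the replicate block (4612), 3 when only the groups compared were fitted (1802), 0 without the libraries numbered 2 (684) and 3 without those numbered 3 (1096), and ranged from 3 (without replicate 3 of treated WT) to 9 (without replicate 1 of treated WT). The interaction stayed at 0 in all settings run. For the members, the block changed no calls beyond those in these counts. Of the values for single members, FARSA in WT reversed, with values from -0.25 (without replicate 1 of treated WT) to 0.53 (without replicate 1 of untreated WT). The cause of these shifts was not tested. Every member had at least 140 counts in every library, and the part of depth was not tested.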

Other observations

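The kinases that phosphorylate eIF2 stand upstream of ATF4. EIF2AK1, the heme-regulated kinase that is abundant in erythroid cells, was at 297, 359 and 345 CPM in untreated WT and at 207, 213 and 185 CPM in untreated KO (log2 difference -0.72, SE 0.16, edgeR adjusted p 0.00623). In treated cells it was at 328, 389 and 380 CPM in WT and at 184, 173 and 191 CPM in KO (SE 0.16 on the log2 scale, edgeR adjusted p 0.00103), and no KO library reached a WT library. Its gene lies on chromosome 7, whose tested genes had median differences of -0.78 and -0.86, and the part of this in the value was not tested. Butyrate did not move EIF2AK1 past the threshold (0.13 in WT and -0.14 in KO, edgeR adjusted p 0.723 and 0.672). EIF2AK2, the kinase that senses double-stranded RNA, had -0.92 in WT and -0.72 in KO with butyrate, with edgeR adjusted p of 0.0758 and 0.126 (0.0184 and 0.0443 with the replicate block). EIF2AK4, which senses uncharged tRNA and so stands closest to the synthetases, had -0.44 and -0.17 (edgeR adjusted p 0.436 and 0.788).

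Of 13 tested partners of the synthetases, 4 were higher in untreated KO than in WT (11.7% of all genes were called higher): DTD1 (0.70, edgeR adjusted p 0.0391) and DTD2 (0.92, 0.0166), which remove D-amino acids from tRNA, SEPSECS (0.72, 0.0249), which makes selenocysteine on its tRNA, and GTPBP1 (0.94, 0.0125), a GTPase related to elongation factors. DTD1 was at 29.9, 35.5 and 20.4 CPM in WT and at 48.6, 44.0 and 47.2 CPM in KO. In treated cells edgeR called 2 of the 13 partners higher in KO (10.1% of all genes). Neighbouring genes were not set beside the partners, and the part of regional differences in these values was not tested. Of 15 tested partners in mitochondrial translation, 12 had values below 0 with butyrate in WT (median -0.25, 47.5% of all genes below 0) and 15 in KO (median -0.29, 49.3%). The edgeR test called 0 of them in either genotype, with 4 at an unadjusted p under 0.05 in each, all lower (7.07% and 7.54% of all genes). The replicate block called 2 in WT and 3 in KO as lower (3.14% and 3.92% of all genes), and DESeq2 called 1 and 2 (8.42% and 9.73%). MTIF2, the mitochondrial initiation factor, went from 116, 146 and 116 to 71.0, 79.3 and 76.7 CPM in WT (edgeR adjusted p 0.0559) and from 136, 108 and 115 to 83.8, 59.9 and 73.8 CPM in KO (edgeR adjusted p 0.0501).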
